A study of Homo sapiens with 10 samples.

Results

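The nuclear-encoded subunits of the respiratory chain were read out of gene counts of HeyA8, a human ovarian carcinoma line in long use that descends from the Hey line. Members were protein-coding genes whose GENCODE symbols begin with NDUFA, NDUFB, NDUFC, NDUFS or NDUFV and a number, are SDHA to SDHD, or begin with UQCR, with COX4 to COX8 and a letter A to C, or with ATP5F1, ATP5M or ATP5P. This rule used names alone and found 86 of the 58395 genes in the count files. Of these, 78 passed the filter on low counts, which kept 16905 genes in all. The tested members comprised 36 subunits of complex I, 4 of complex II, 9 of complex III, 12 of complex IV and 17 of complex V. NDUFA4 and NDUFA4L2 carry complex I names but were counted with complex IV, where NDUFA4 is now placed. The 8 untested members were COX6A2, COX6B2, COX7A1, COX7B2, COX8C, ATP5MGL and the readthrough loci NDUFC2-KCTD14 and ATP5MF-PTCD1. COX6A2, COX7B2 and NDUFC2-KCTD14 had no count in any library. The rule also misses components such as NDUFAB1, CYC1, CYCS, COX4I1 and COX4I2, of which those tested are described separately.

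The respiratory chain sits in the inner mitochondrial membrane. Complexes I and II pass electrons from NADH and succinate to ubiquinone, complex III passes them on to cytochrome c, and complex IV hands them to oxygen. Complexes I, III and IV pump protons across the membrane, and complex V, the ATP synthase, uses the resulting gradient to make ATP. Most subunits are encoded in the nucleus and imported, and a few hydrophobic ones are encoded by mitochondrial DNA.

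The study asked how short RNA duplexes that act through a 6-base seed change the transcripts of cancer cells. Cells of all 5 groups received 10 nM of a duplex and total RNA was taken after 24 or 48 h, with 2 libraries per group. The groups were siNT1 at 24 h, siGGGGGC at 24 h, siNT1 at 48 h, siGGCAGU at 48 h and siGGGGGC at 48 h, so siGGCAGU had no 24 h group. siNT1 is a non-targeting control duplex, which both control groups received in a form labelled S2'OM. The study states that the passenger strand of siGGGGGC and siGGCAGU was chemically modified. siGGGGGC and siGGCAGU are named after their seeds, and their sample titles call them siMxy and si34a. The seed GGCAGU is that of miR-34a-5p. Only RNA above 140 nt was sequenced. Per the study's methods the duplicates were wells transfected separately, and p-values measure the spread between such wells, which may be technical. In bulk RNA, fewer cells and less RNA per cell cannot be told apart.

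Libraries held 19781445 to 42428986 counts assigned to genes. Markers bore out the label only in part. KRT7, KRT8 and KRT18 stood at 74.8 to 398 CPM (counts scaled to a common library size) and VIM at 785 to 1514 CPM, whereas EPCAM, KRT19, CDH1 and the ovarian antigen MUC16 stayed at or below 1.75 CPM. PAX8 lay between 3.35 and 35.0 CPM. Leukocyte markers reached at most 0.201 CPM, endothelial markers 1.54 CPM and fibroblast markers 2.19 CPM. The control library siNT1 48 h replicate 1 stood apart in the members themselves. There 63 of 78 members were lower than in replicate 2, with a median log2 difference of -0.24, and the cytosolic ribosomal protein genes differed by -0.27. For other protein-coding genes the same difference ran from -0.17 for transcripts of up to 1000 bases to 0.15 for those over 8000 bases. The members are short, with a median canonical transcript of 781 bases against 3429 for other protein-coding genes. The 3 members over 8000 bases, UQCRB, NDUFA9 and NDUFS1, were also lower in replicate 1, with differences of -0.41, -0.14 and -0.11. The part of length in this shift was not tested. Comparisons of the members with siNT1 at 48 h are given with and without this library.

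**Figure D1:**
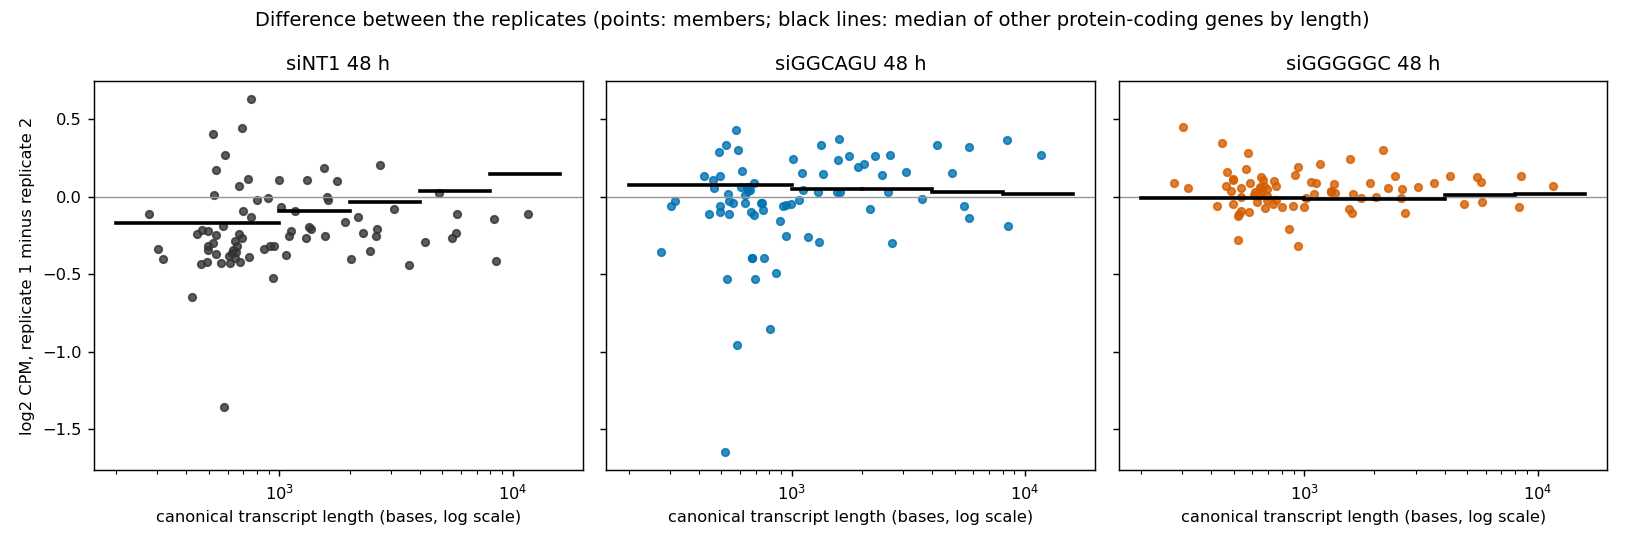
Difference between replicate 1 and replicate 2 (log2 CPM, vertical axis) against canonical transcript length in bases (log axis) for the 3 groups taken at 48 h. Points are members coloured by group, and black lines are medians of other protein-coding genes by length. In the siNT1 panel 63 of 78 members lie below 0 and the line climbs from -0.17 to 0.15.

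Members made up 1.81 to 2.23% of protein-coding counts. The summed level of all members was 14744 and 15059 CPM in siNT1 at 24 h and 14389 and 14731 CPM in siGGGGGC at 24 h. At 48 h it was 11023 and 13403 CPM in siNT1, 14347 and 13954 CPM in siGGCAGU, and 14106 and 13633 CPM in siGGGGGC. The lowest of the 10 libraries was siNT1 48 h replicate 1, and without it the remaining 9 spanned 13403 to 15059 CPM.

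The summed levels of the complexes followed different orders at 48 h. Complex I summed to 3012 ± 362 CPM (SD, n = 2) in siNT1 at 48 h, 3667 ± 22.1 CPM in siGGCAGU and 3512 ± 96.1 CPM in siGGGGGC. Complex IV stood at 3628 ± 618, 4187 ± 159 and 4587 ± 118 CPM in the same order. In both complexes the libraries of siGGCAGU and siGGGGGC lay above both control libraries of that time. Complex III summed to 1717 ± 247 CPM in siNT1, 1828 ± 64.9 CPM in siGGCAGU and 1658 ± 53.4 CPM in siGGGGGC, and here the control libraries at 1542 and 1892 CPM enclosed every other 48 h library. Complex V came to 3585 ± 453, 4208 ± 193 and 3816 ± 66.4 CPM, and its siGGGGGC libraries lay between the siNT1 ones at 3265 and 3905 CPM. Complex II was the least abundant at 251.8 to 328 CPM over all libraries.

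**Figure D2:**
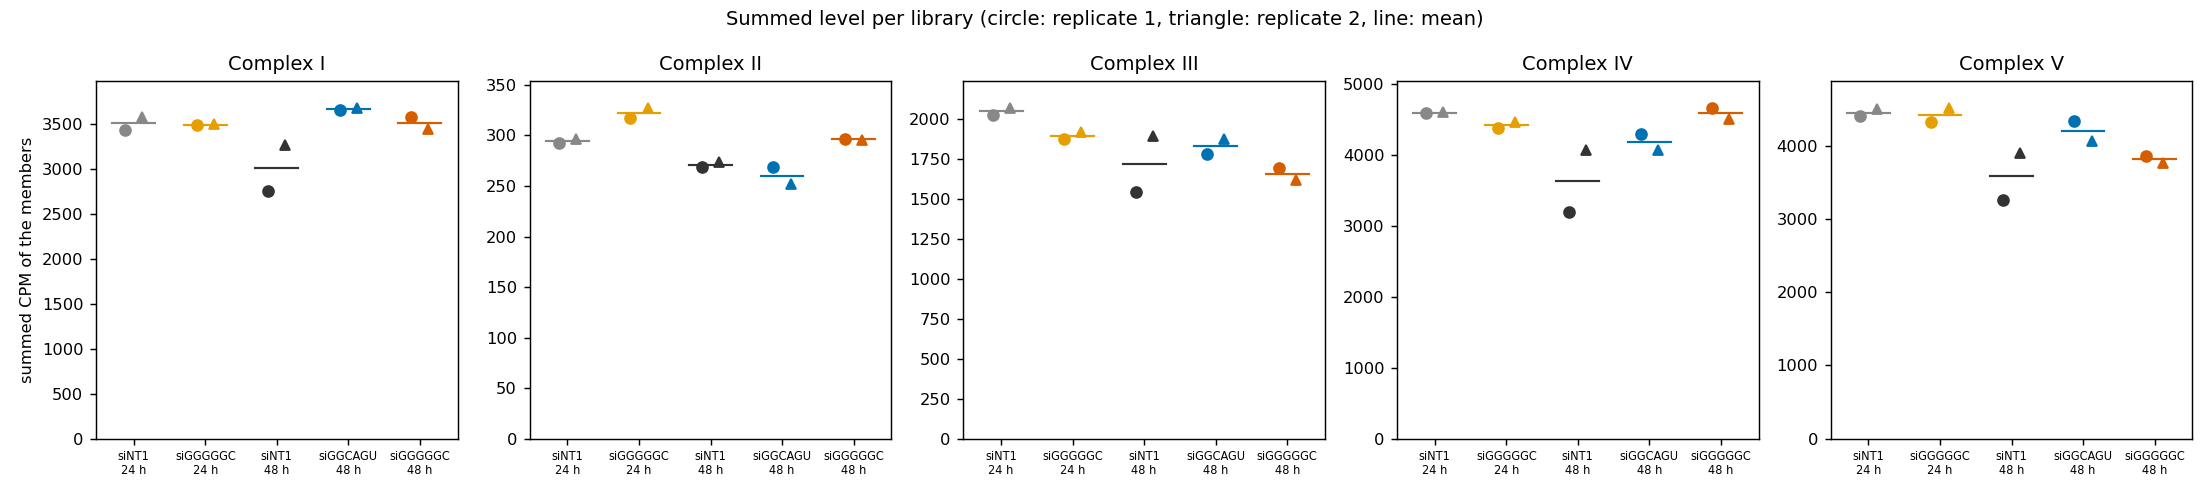
Summed level of the members of each complex (CPM, vertical axis, from 0) in the 10 libraries, with 1 panel per complex and the 5 groups along the horizontal axis. Circles are replicate 1, triangles replicate 2 and lines group means. In siNT1 at 48 h the circle lies under the triangle in every panel, at 3191 against 4065 CPM for complex IV.

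Per kilobase of canonical transcript, members spanned a wide range in the siNT1 libraries. The median was 167 CPM per kb for complex IV, 125 for complex V, 78.0 for complex III, 47.2 for complex I and 45.0 for complex II. COX7C, a small complex IV subunit, was the highest of all at 1386 CPM per kb. UQCRH, the hinge protein of complex III, reached 845, NDUFS5 of complex I 844, ATP5MC2, which encodes the c subunit of the ATP synthase ring, 484, and SDHB 112 CPM per kb. The lowest members of their complexes were NDUFA7 at 0.918, NDUFA4L2 at 1.12, ATP5F1D at 6.38, UQCR11 at 8.85 and SDHC at 15.2 CPM per kb. NDUFA7 is overlapped by another gene over 89.6% of its length. Neither the strand setting nor the treatment of reads that match overlapping genes is given in the sources used here, so the levels of overlapped members are uncertain. This holds also for NDUFV2 (90.0%), NDUFA13 (83.9%), NDUFB8 (74.5%), ATP5PO (70.7%), NDUFA11 (68.2%) and NDUFS7 (51.3%).

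Paralogues were expressed unevenly. COX6A1, COX6B1, COX7A2, COX7B and COX8A, the widely expressed forms, ranged from 28.3 CPM for COX8A to 734 CPM for COX7A2 at their extremes. Their partners COX6A2, COX6B2, COX7A1, COX7B2 and COX8C did not exceed 0.276 CPM in any library. NDUFA4 stood at 345 to 592 CPM and NDUFA4L2, its hypoxia-linked relative, at 0.745 to 1.41 CPM. ATP5MC1, ATP5MC2 and ATP5MC3, which encode the same mature c subunit, were all expressed, at 151 to 212, 246 to 329.7 and 185 to 242 CPM. UQCRH and its near-identical copy UQCRHL can share reads, so their split is uncertain. The 13 mitochondrially encoded subunits were listed at 0 in all 10 libraries and could not be set beside their nuclear partners.

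Because the duplexes act through their seeds, the longest annotated 3′ UTR of each member was searched for the sequence that pairs with each seed. GCCCCC, the match to GGGGGC, was present in 13 of 78 members (16.7%) against 31.7% of other tested protein-coding genes. ACTGCC, the match to GGCAGU, was present in 16 members (20.5%) against 36.6%. These shares were not adjusted for 3′ UTR length, and members have shorter transcripts, with a median of 781 bases against 3429 for other protein-coding genes. The matches below are a selection from members with calls described further on, each with up to 12 bases on either side, the match in capitals, in hg38 and read 5′ to 3′ on the gene's strand. They lie at chr19:29206723-29206728 (UQCRFS1, minus strand), chr3:179627305-179627310 (NDUFB5, plus), chr1:161362847-161362852 (SDHC, plus), chr19:1597447-1597452 (UQCR11, minus), chr7:123539403-123539408 (NDUFA5, minus) and chr3:120601743-120601748 (NDUFB4, plus). ATP5F1D carries both matches, which overlap by 3 bases, at chr19:1244784-1244789 and chr19:1244787-1244792 on the plus strand, and a further GCCCCC at chr19:1244794-1244799, left in lower case in its lines.
UQCRFS1, match to GGCAGU: ctgagacctaatACTGCCtgcatgcagaag
NDUFB5, match to GGCAGU: ctttaaaaattcACTGCCtgtttttctggt
SDHC, match to GGCAGU: gctttgggtgccACTGCCtgtgggttgctg
ATP5F1D, match to GGCAGU: acctctggatgaACTGCCcccagcccccgc
ATP5F1D, match to GGGGGC: tctggatgaactGCCCCCagcccccgcccc
UQCR11, match to GGGGGC: tatcaaaagcaaGCCCCCcaggcccagccc
NDUFA5, match to GGGGGC: aacaaagttgatGCCCCCtttctcccacac
NDUFB4, match to GGGGGC: ccctgagctgcaGCCCCCaggcttgtgttg

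A match was followed by calls in either direction. Against siNT1 at 48 h, siGGGGGC gave 3 higher and 2 lower calls among the 13 members with GCCCCC, with a median log2 fold change of 0.10, and 22 higher and 9 lower among the 65 without it, with a median of 0.11. Of all genes tested, 27.8% were higher and 27.5% lower. The control library that stood apart left out, the median was -0.05 for the 13 members and -0.04 for the 65, beside -0.02 for all genes. For other protein-coding genes the medians in all libraries were -0.15 with the match and 0.07 without. On canonical transcripts only, 8 members had GCCCCC, with 1 higher and 1 lower (median -0.02), and the 70 without had 24 and 10 (median 0.11). At 24 h the 13 members had 1 higher and 2 lower (median -0.03) and the 65 had 8 and 1 (median -0.005). The shares of all genes at 24 h were 10.6% and 8.32%. By canonical transcript the 8 had 0 and 2 at 24 h by edgeR, and the 70 had 9 and 1. siGGCAGU gave 5 higher and 3 lower calls among the 16 members with ACTGCC (median 0.05) and 21 higher and 2 lower among the 62 without (median 0.15), beside 27.8% higher and 24.9% lower of all genes and medians of -0.05 and 0.07 for other protein-coding genes. The same library left out, the median was -0.07 for the 16 and 0.05 for the 62, beside 0.03 for all genes. On canonical transcripts only and with all libraries, 13 members had ACTGCC, with 5 higher and 2 lower (median 0.05). The 65 without it had 21 and 3 (median 0.14). Of the members printed above, UQCRFS1 and ATP5F1D fell and NDUFB5 and SDHC rose with siGGCAGU. UQCR11 and NDUFA5 fell with siGGGGGC at 24 h. At 48 h with siGGGGGC, ATP5F1D (log2 fold change 0.37 ± 0.12, adjusted p = 0.017 by edgeR) and NDUFB4 rose. DESeq2 did not call this rise of ATP5F1D. The match in NDUFB4 is not in the 3′ UTR of its canonical transcript. The call of SDHC was lost without siNT1 48 h replicate 2 or siGGCAGU 48 h replicate 2.

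At 24 h with siGGGGGC, COX5B and several complex I subunits rose and a few small subunits of complexes I and III fell. A call here means an adjusted p below 0.05 over all genes tested. Of 78 members, 9 were higher than in siNT1 and 3 lower, beside 10.6% of all genes tested that were higher and 8.32% that were lower. The median log2 fold change was -0.01 for members and 0.00 for all genes. Scaled to total counts in place of TMM, which moved the median of all genes by -0.09, 4 members were higher and 6 lower. A fit of only the 2 groups compared gave 13 higher and 19 lower, and removing the length trend 8 and 12, so the balance of directions changed with the model. Shares of all genes under these fits are not given beside these counts, so the change is not read as particular to the members. A single member, COX5B, passed a 2-fold change, as did 3.72% of all genes. Complex I had 6 higher and 1 lower of 36, complex II 1 higher of 4, complex III 1 higher and 2 lower of 9 and complex IV 1 higher of 12. None of the 17 complex V subunits was called by edgeR, where 2 were higher and 2 lower at an unadjusted p below 0.05, and DESeq2 also called 0.

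COX5B, the zinc-binding subunit on the matrix side of complex IV (chr2:97646062-97648383, plus strand), stood at 97.9 and 115 CPM in siNT1 and 216 and 213 CPM in siGGGGGC at 24 h. The groups did not overlap, and the log2 fold change was 1.01 ± 0.12 (SE; adjusted p = 4.9e-05 by edgeR's quasi-likelihood test). NDUFB7 (chr19:14566078-14572066, minus strand), an accessory subunit of the membrane arm of complex I, moved from 73.6 and 88.0 CPM to 129 and 124 CPM. Both siGGGGGC libraries were above both controls, with a log2 fold change of 0.64 ± 0.10 (adjusted p = 0.00034). NDUFB11, another accessory subunit there, rose from 21.1 and 26.0 CPM to 36.4 and 36.3 CPM, by 0.63 ± 0.13 (adjusted p = 0.0029).

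The remaining rises at 24 h were in electron-carrying and core subunits as well as accessory ones. UQCRC1, a core protein of complex III, was at 120.0 and 123 CPM in siNT1 and 163 and 176 CPM in siGGGGGC, a log2 fold change of 0.48 ± 0.11 (adjusted p = 0.0052). SDHA, the flavoprotein of complex II, was at 51.6 and 51.2 CPM and then 69.3 and 70.2 CPM, with 0.44 ± 0.11 (adjusted p = 0.0085). In both genes the siGGGGGC libraries were the higher ones without overlap. The complex I core subunits NDUFV1, which binds FMN, and NDUFS8, an iron-sulfur protein, rose by 0.40 ± 0.09 and 0.42 ± 0.10. NDUFS1 and NDUFS3, further core subunits, were not called, with 0.03 ± 0.10 and 0.02 ± 0.09.

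The lower members at 24 h were UQCR11, NDUFA5 and UQCRB. NDUFA5, an accessory subunit of complex I, went from 94.1 and 97.2 CPM to 72.9 and 70.2 CPM (log2 fold change -0.42 ± 0.10, adjusted p = 0.0071). UQCRB, the ubiquinone-binding protein of complex III, went from 704 and 724 CPM to 548 and 547 CPM (-0.38 ± 0.12, adjusted p = 0.036). UQCR11, a small complex III subunit, went from 14.0 and 12.2 CPM to 9.61 and 9.85 CPM (-0.43 ± 0.13, adjusted p = 0.03). No library of either group overlapped the other in these members. Of the 12 calls, 3 remained without siNT1 24 h replicate 1 (COX5B, NDUFB7 and NDUFA5), 6 without siNT1 24 h replicate 2 or without siGGGGGC 24 h replicate 2, and 5 without siGGGGGC 24 h replicate 1, and COX5B and NDUFB7 were called in each of these. Without a 48 h library, which only shares the estimate of spread, 9 to 12 members were higher and 1 to 6 lower.

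At 48 h with siGGGGGC 36 members changed, and the complexes differed in which direction had more calls. Members higher than siNT1 numbered 25, beside 27.8% of all genes tested, and 11 were lower, beside 27.5%. The median log2 fold change was 0.11 over members and -0.01 over all genes, and scaled to total counts, which moved the median of all genes by -0.17, it was -0.05 with 17 members higher and 19 lower. Changes ranged from -0.77 to 0.98, and no member passed 2-fold by edgeR or by DESeq2, where 21.5% of all genes did so by edgeR. Complex I had 13 higher and 4 lower with a median of 0.21, and complex IV 6 higher and 1 lower with a median of 0.22. Complex III had 2 higher and 4 lower with a median of -0.20, complex V 3 higher and 2 lower with a median of 0.00, and complex II 1 higher of 4. Without siNT1 48 h replicate 1 fewer members were called higher and more lower. The median was then -0.05, beside -0.02 for all genes. ATP5PF, COX6B1, COX7A2L, NDUFA13, NDUFS4 and UQCRH lost their calls. The medians were then 0.15 for complex I, -0.33 for complex III and 0.10 for complex IV. With siNT1 48 h replicate 2 left out instead, more members were called higher and fewer lower.

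**Figure D3:**
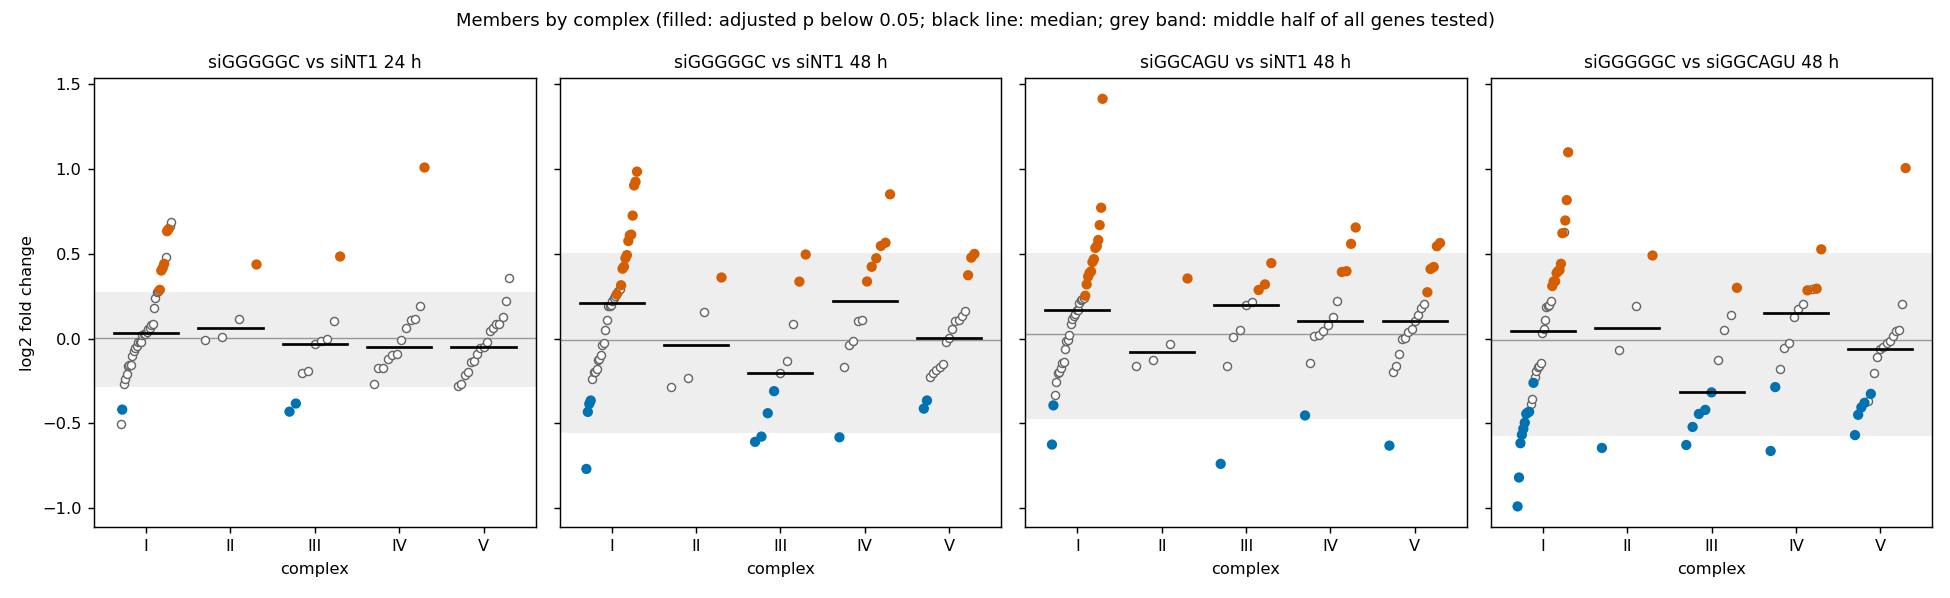
Log2 fold change (vertical axis) of each tested member by complex in 4 comparisons. Filled points have an adjusted p below 0.05, black lines are medians of a complex and the grey band is the interquartile range of all genes tested. With siGGGGGC at 48 h the median is 0.21 for complex I, -0.20 for complex III and 0.22 for complex IV.

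NDUFB7, NDUFB11 and COX5B, which rose at 24 h, were also among the 5 largest rises at 48 h. NDUFB7 stood at 71.0 and 62.9 CPM in siNT1 at 48 h and 128 and 136 CPM in siGGGGGC, a log2 fold change of 0.98 ± 0.10 (adjusted p = 6.5e-07). NDUFB11 stood at 26.0 and 21.6 CPM and then 45.8 and 42.9 CPM, a change of 0.90 ± 0.12 (adjusted p = 1.6e-05). COX5B was at 131 and 96.4 CPM in siNT1 and at 203 and 206 CPM in siGGGGGC, with 0.85 ± 0.12 (adjusted p = 2.7e-05). All 3 genes were separated from the controls by a wide margin, and for COX5B the control libraries themselves lay far apart.

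Other rises at 48 h were spread over the arms of complex I. NDUFA12 (chr12:94895297-95003748, minus strand), an accessory subunit of the matrix arm, was at 116 and 155 CPM in siNT1 and 237 and 209.6 CPM in siGGGGGC (log2 fold change 0.72 ± 0.12, adjusted p = 7.6e-05). NDUFS7, a core subunit that holds the last iron-sulfur cluster before ubiquinone, was at 4.83 and 3.09 CPM and then 7.36 and 7.45 CPM (0.92 ± 0.21, adjusted p = 0.0017). Neither gene overlapped between groups, but NDUFS7 had few counts and an antisense overlap. NDUFC1, NDUFB4 and NDUFA6, membrane-arm or accessory subunits, rose by 0.61 ± 0.13, 0.57 ± 0.11 and 0.49 ± 0.11. In complex IV, COX7A2, COX6B1, COX6C, COX7A2L and NDUFA4 rose by 0.54, 0.47, 0.42, 0.34 and 0.56 besides COX5B. COX6B1, on the intermembrane-space side, and COX7A2L, a supercomplex factor, were among the calls lost without siNT1 48 h replicate 1, and COX6C and COX7A2L lost theirs without siGGGGGC 48 h replicate 1.

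The falls at 48 h included a core protein and the Rieske protein of complex III. UQCRC2 (chr16:21953288-21983660, plus strand), a core protein, was at 134 and 150.1 CPM in siNT1 and 96.2 and 90.5 CPM in siGGGGGC, with a log2 fold change of -0.61 ± 0.10 (adjusted p = 6.6e-05). UQCRFS1 (chr19:29205320-29213151, minus strand), the Rieske iron-sulfur protein, was at 102 and 108 CPM and then 79.2 and 76.0 CPM (-0.44 ± 0.08, adjusted p = 0.0004). UQCRC1, the partner of UQCRC2 in the core, went the other way, from 103 CPM in each siNT1 library to 139 and 149.9 CPM (0.49 ± 0.11, adjusted p = 0.001). The core proteins of complex III thus moved in opposite directions, each without overlap between groups. UQCR11 fell from 8.97 and 10.8 CPM to 6.71 and 6.58 CPM (-0.58 ± 0.13, adjusted p = 0.0013).

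COX8A, the only complex IV subunit that fell, was at 40.6 and 47.4 CPM in siNT1 at 48 h and 30.5 and 28.3 CPM in siGGGGGC (log2 fold change -0.58 ± 0.10, adjusted p = 0.00018). It is overlapped over 35.4% of its length. NDUFV2, a core iron-sulfur subunit of complex I, was at 2.71 and 3.44 CPM and then 1.68 and 1.95 CPM (-0.77 ± 0.22, adjusted p = 0.0075). This value is uncertain, since the gene held 721 counts over all libraries and its processed pseudogene 4856. Their sum gave 0.37 (adjusted p = 0.0049), the opposite direction, and the call of NDUFV2 alone was lost without siNT1 48 h replicate 2 or siGGGGGC 48 h replicate 1. In complex V, ATP5PO and ATP5PF of the peripheral stalk fell by 0.41 and 0.36, while ATP5PB and ATP5PD of the same stalk rose by 0.48 and 0.50. The call of ATP5PF was lost without any 1 of the 4 libraries compared. The α and β subunits of the catalytic head, ATP5F1A and ATP5F1B, were not called, at 0.10 ± 0.10 and -0.02 ± 0.10.

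**Figure D4:**
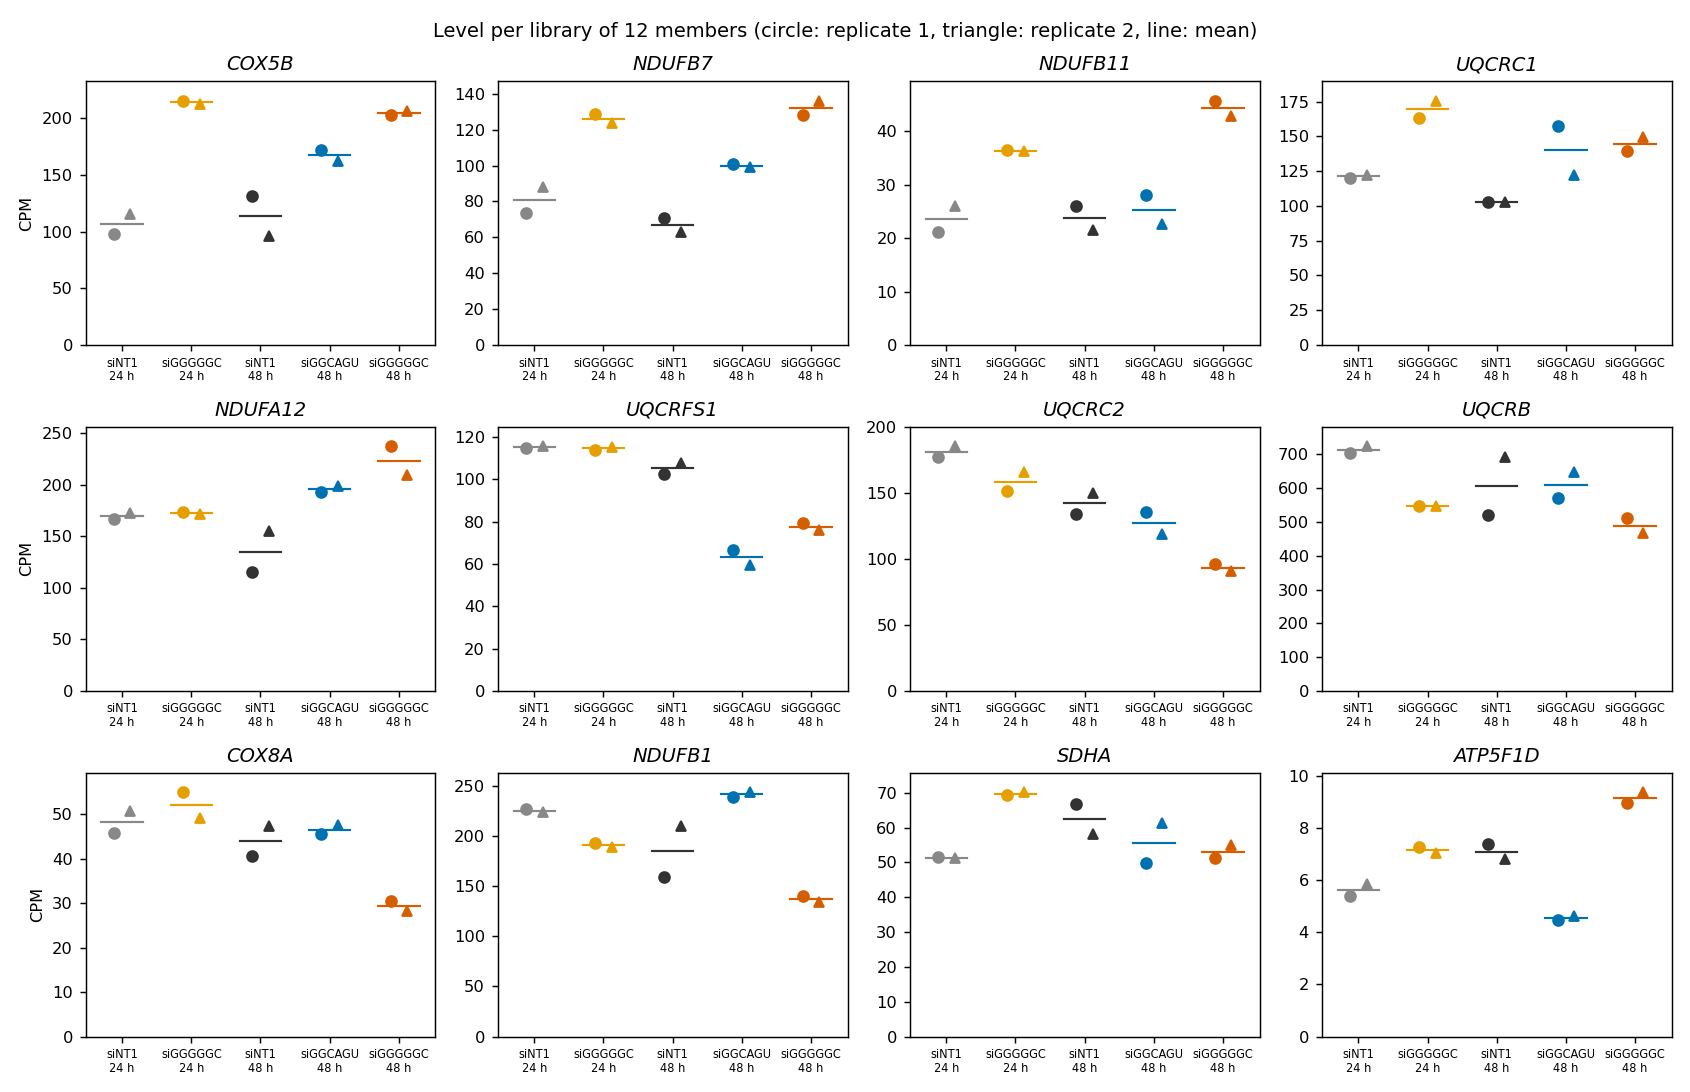
Level of 12 members (CPM, vertical axis, from 0) in the 10 libraries, with 1 panel per gene. Circles are replicate 1, triangles replicate 2 and lines group means. COX5B and NDUFB7 are higher in every siGGGGGC library than in the siNT1 libraries of the same time, and UQCRFS1 is lowest in siGGCAGU at 59.7 and 66.7 CPM.

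With siGGCAGU at 48 h 31 members changed, most of them upwards. Higher members numbered 26, beside 27.8% of all genes tested, and lower ones 5, beside 24.9%. The median log2 fold change was 0.13 over members and 0.02 over all genes, and scaled to total counts, which moved the median of all genes by -0.13, it was -0.02 with 15 members higher and 11 lower. A single member, NDUFA13, passed 2-fold, as did 20.3% of all genes. Complex I had 13 higher and 2 lower (median 0.17), complex III 3 and 1 (median 0.20), complex IV 4 and 1 (median 0.10), complex V 5 and 1 (median 0.10), and complex II 1 higher of 4. Scaled to total counts, complexes IV and V each had a median of -0.05. Without siNT1 48 h replicate 1, fewer members were called higher and more lower, and some calls were lost. The median was then 0.04, beside 0.03 for all genes. With siNT1 48 h replicate 2 left out instead, more were called higher and fewer lower, with a median of 0.28. Without siGGCAGU 48 h replicate 2, fewer were called higher and more lower.

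NDUFA13, also known as GRIM-19, showed the widest change of any member with siGGCAGU. It stood at 3.19 and 3.95 CPM in siNT1 and 10.8 and 8.53 CPM in siGGCAGU, a log2 fold change of 1.41 ± 0.16 (adjusted p = 1.8e-06). The groups were far apart, though counts were low and 83.9% of the gene (chr19:19515736-19529054, plus strand) is overlapped on the same strand. NDUFB5, an accessory subunit, was at 135 and 165 CPM and then 285 and 226 CPM (0.77 ± 0.12, adjusted p = 6.3e-05), and COX6B1 at 267 and 357 CPM and then 540.3 and 442 CPM (0.65 ± 0.12, adjusted p = 0.00037). Neither overlapped between groups. NDUFA11, NDUFB7, COX5B and NDUFA12 rose by 0.67 ± 0.17, 0.58 ± 0.10, 0.56 ± 0.12 and 0.53 ± 0.12, and UQCRC1 by 0.44 ± 0.11. NDUFA11 was not called without siGGCAGU 48 h replicate 1.

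UQCRFS1 fell more than any other member with siGGCAGU. It was at 102 and 108 CPM in siNT1 and 66.7 and 59.7 CPM in siGGCAGU (log2 fold change -0.74 ± 0.08, adjusted p = 2.9e-06), and it carries the ACTGCC match printed above. ATP5F1D, the δ subunit of the ATP synthase central stalk (chr19:1241746-1244825, plus strand), was at 7.36 and 6.81 CPM and then 4.48 and 4.64 CPM (-0.63 ± 0.13, adjusted p = 0.00076). COX5A was at 51.2 and 54.6 CPM and then 35.1 and 41.9 CPM (-0.45 ± 0.10, adjusted p = 0.0015), opposite to COX5B, the subunit it is named with. In none of these members did a siGGCAGU library reach the lower control library. NDUFA5 fell by 0.39 and NDUFV2 by 0.62, the latter not with its pseudogene counts added (0.22, adjusted p = 0.074).

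Both 48 h comparisons use the same siNT1 libraries, so their calls are not independent. Side by side, 10 members were higher with both duplexes and 2 lower with both. NDUFB1, a small membrane-arm subunit of complex I (chr14:92116122-92121917, minus strand), was lower with siGGGGGC and higher with siGGCAGU, and ATP5F1D was the reverse. The rise of ATP5F1D with siGGGGGC was not called by DESeq2, on total counts without TMM, or without the count filter. The call of NDUFB1 was lost with siGGGGGC without siNT1 48 h replicate 2 and with siGGCAGU without siNT1 48 h replicate 1, and that of ATP5F1D with siGGGGGC without siNT1 48 h replicate 2 or either siGGGGGC 48 h library. Neither duplex gave a call in 25 members. Joint counts outside the members are not given here, so this overlap is not read as particular to them. The direct comparison of siGGGGGC with siGGCAGU at 48 h, each at 10 nM, does not use siNT1.

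In that direct comparison 40 of 78 members differed. With siGGGGGC 17 were higher than with siGGCAGU, beside 26.7% of all genes tested, and 23 were lower, beside 27.6%. The median was -0.04 over members and -0.01 over all genes. NDUFS7 and ATP5F1D passed a 2-fold difference, as did 23% of all genes. Complex III had 1 higher and 5 lower with a median of -0.32, complex V 1 higher and 5 lower with a median of -0.06, and complex I 11 higher and 10 lower with a median of 0.04. Complex IV had 3 higher and 2 lower, and complex II 1 of each. Of the 40 calls, 30 remained without siGGGGGC 48 h replicate 2, 31 without siGGGGGC 48 h replicate 1, 35 without siGGCAGU 48 h replicate 2 and 36 without siGGCAGU 48 h replicate 1.

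ATP5F1D gave the clearest separation, at 8.95 and 9.37 CPM with siGGGGGC and 4.48 and 4.64 CPM with siGGCAGU (log2 difference 1.00 ± 0.13, adjusted p = 1.1e-05). NDUFB1 was at 139.8 and 134 CPM against 239 and 244 CPM (-0.82 ± 0.11, adjusted p = 1.2e-05). COX8A was at 30.5 and 28.3 CPM against 45.6 and 47.5 CPM (-0.66 ± 0.10, adjusted p = 5.5e-05). For each of these genes the replicates of a duplex lay within a narrow range and the duplexes far from each other. NDUFB11 and NDUFA6 were higher with siGGGGGC by 0.81 ± 0.12 and 0.69 ± 0.11, and NDUFS7 by 1.10 ± 0.22. NDUFA13 was lower by 0.99 and SDHC, a membrane anchor of complex II, by 0.64. The iron-sulfur subunit SDHB, by contrast, was higher by 0.49 ± 0.10, at 133 and 134 CPM against 104 and 87.3 CPM.

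Other members were not shown to differ between the duplexes. UQCRC1, higher with both against siNT1, differed by 0.05 with a 95% interval of -0.18 to 0.28 (adjusted p = 0.72), and ATP5F1A by 0.05 with an interval of -0.17 to 0.26 (adjusted p = 0.73). COX5B differed by 0.29 with an interval of 0.03 to 0.55, which did not pass the adjusted threshold (adjusted p = 0.054). NDUFA12 differed by 0.19 with an interval of -0.05 to 0.44.

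The response to siGGGGGC differed in time for 14 members. The difference between its effects at 48 and 24 h, tested in the same fit, was higher for 9 members, beside 13.4% of all genes tested, and lower for 5, beside 15.2%. NDUFB4 had a log2 fold change of -0.16 ± 0.11 at 24 h and 0.57 ± 0.11 at 48 h, a difference of 0.73 ± 0.15 (adjusted p = 0.0021). COX7A2 went from -0.17 ± 0.12 to 0.54 ± 0.12 and NDUFA12 from 0.03 ± 0.12 to 0.72 ± 0.12, with differences of 0.72 ± 0.17 and 0.69 ± 0.16. In these 3 members only the later time was called.

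The members with a negative difference were lower or uncalled at 48 h. COX8A went from 0.11 ± 0.10 to -0.58 ± 0.10, a difference of -0.69 ± 0.14 (adjusted p = 0.0021). UQCRFS1 stood at 115 and 116 CPM in siNT1 and 114 and 115 CPM in siGGGGGC at 24 h, and its difference was -0.43 ± 0.12 (adjusted p = 0.013). SDHA was raised at 24 h by 0.44 and stood at -0.23 ± 0.10 at 48 h without a call, a difference of -0.67 ± 0.15 (adjusted p = 0.0031). With its pseudogene counts added, SDHA was called lower at 48 h by edgeR (-0.32, adjusted p = 0.013). COX5B had effects of 1.01 and 0.85, and the difference of -0.16 (95% interval -0.53 to 0.21) was not called. Without siNT1 48 h replicate 1 there were 6 positive and 7 negative calls, and COX6C, COX7A2L, NDUFA2 and NDUFA4 lost theirs. There were 21 positive and 4 negative calls without siNT1 48 h replicate 2. Of the 14 calls, 6 remained without siNT1 24 h replicate 1 or siGGGGGC 48 h replicate 2, 7 without siGGGGGC 48 h replicate 1, 8 without siNT1 24 h replicate 2 or siGGGGGC 24 h replicate 2, and 10 without siGGGGGC 24 h replicate 1.

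**Figure D5:**
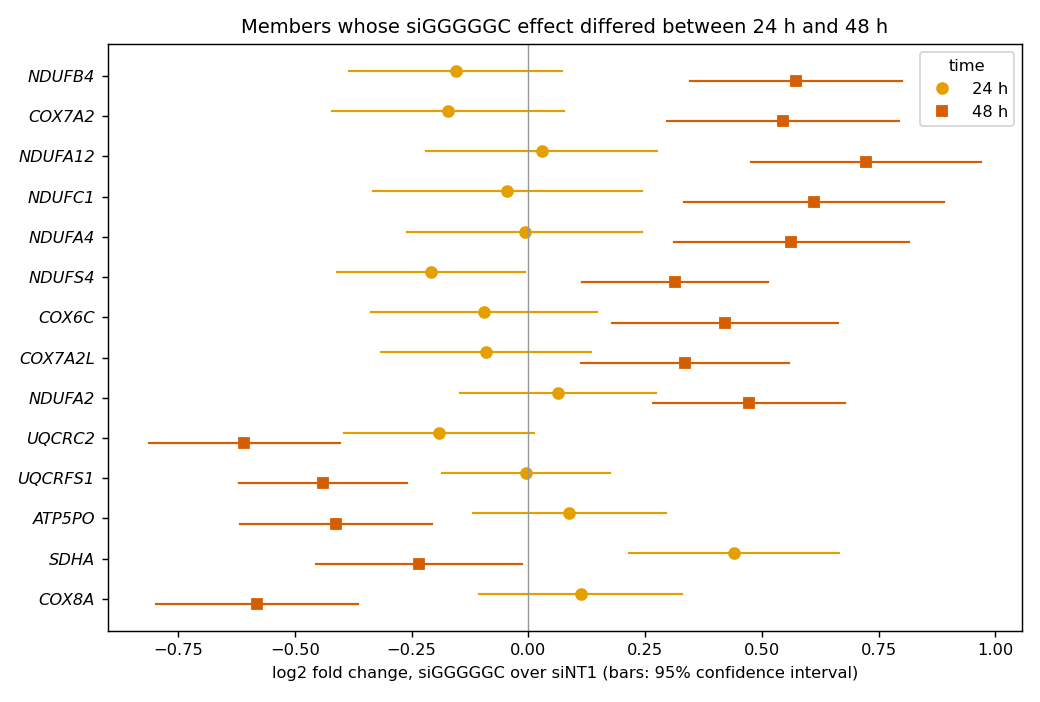
Log2 fold change of siGGGGGC against siNT1 at 24 h and at 48 h (axis in log2 units) with 95% intervals for the 14 members whose effect differed between the times. The 24 h and 48 h points of NDUFB4 lie at -0.16 and 0.57, and those of COX8A at 0.11 and -0.58.

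Control cells alone differed between the times. In siNT1, 1 member was higher at 48 h than at 24 h, beside 9.37% of all genes tested, and 21 were lower, beside 7.2%, with a member median of -0.24 against 0.00 for all genes. The fall was not particular to the members. Of 78 mitochondrial ribosomal protein genes edgeR called 0 higher and 25 lower, with a median of -0.27. Of 83 cytosolic ribosomal protein genes it called 2 higher and 46 lower, with a median of -0.37. Scaled to total counts, which moved the median of all genes by 0.23, the member median was -0.01 with 3 higher and 2 lower. SDHC was the member that was higher, from 16.3 and 16.0 CPM to 24.5 and 22.7 CPM (log2 fold change 0.55 ± 0.12, adjusted p = 0.0093). COX6B1 was lower, from 438 and 453 CPM to 267 and 357 CPM (-0.51 ± 0.12, adjusted p = 0.013), and ATP5PB went from 382 and 387 CPM to 253 and 292 CPM (-0.50 ± 0.10, adjusted p = 0.0065). In all 3 genes the 24 h and 48 h libraries were separate, and the lower of the 48 h values was replicate 1 for COX6B1 and ATP5PB. Without siNT1 48 h replicate 1 edgeR called 0 members, where 1 was higher and 11 lower at an unadjusted p below 0.05. It also called 0 without siNT1 24 h replicate 1 (1 and 27 unadjusted) or siNT1 24 h replicate 2 (3 and 19 unadjusted), while DESeq2 on all libraries called 1 higher and 25 lower. With siNT1 48 h replicate 2 left out, edgeR called 2 higher and 40 lower, and leaving out a siGGGGGC library of either time left 10 or 11 of the 22 calls.

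Short transcripts outside the members had a similar median in this comparison. Of canonical transcripts up to 1000 bases, 46 members had a median of -0.23 and 460 other protein-coding genes -0.24. In each longer class the members had the lower median. From there up to 2000 bases it was -0.31 for 15 members against -0.11 for the others. Up to 4000 bases it was -0.25 for 9 members against -0.007, and up to 8000 bases -0.22 for 5 against 0.08. Over 8000 bases it was -0.28 for 3 members against 0.20. In the siGGGGGC comparison at 48 h the medians of transcripts up to 1000 bases were 0.11 for members and 0.11 for the others, and with siGGCAGU 0.18 and 0.07. The part of transcript length in the calls was not tested.

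The most similar gene groups showed calls in both directions as well. Of 78 mitochondrial ribosomal protein genes, 31 were higher and 20 lower with siGGGGGC at 48 h and 23 and 16 with siGGCAGU. Of 83 cytosolic ribosomal protein genes, 20 were higher and 21 lower with siGGGGGC and 5 and 21 with siGGCAGU. Among the members the counts were 25 and 11, and 26 and 5, beside 27.8% higher and 27.5% lower of all genes with siGGGGGC and 27.8% and 24.9% with siGGCAGU. With siGGGGGC and siGGCAGU the median log2 fold changes were 0.135 and 0.06 for the mitochondrial ribosomal protein genes and 0.06 and -0.0006 for the cytosolic ones. Without siNT1 48 h replicate 1 they were 0.04 and 0.04, and -0.09 and -0.14, beside -0.02 and 0.03 for all genes. The differences between the groups were not tested.

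Of the subunits that the naming rule misses, NDUFAB1, the acyl carrier protein that is also a complex I subunit, rose most. It was at 107 and 120.0 CPM in siNT1 and 185 and 174 CPM in siGGGGGC at 24 h, and at 101 and 89.6 CPM in siNT1 and 248 and 257 CPM in siGGGGGC at 48 h. The libraries were far apart at both times, with log2 fold changes of 0.66 ± 0.09 and 1.41 ± 0.10, and siGGCAGU gave 0.49 ± 0.09. CYC1, cytochrome c1 of complex III, rose by 0.48 with siGGGGGC at 24 h and by 0.33 with siGGCAGU, and was at -0.11 ± 0.10 with siGGGGGC at 48 h without a call. CYCS, cytochrome c, fell with siGGCAGU by 1.05. COX4I1, a nuclear-encoded regulatory subunit of complex IV, was not called in any of these comparisons, at -0.13, 0.06 and -0.03 with siGGGGGC at 24 h, siGGGGGC at 48 h and siGGCAGU. COX4I2 was not tested.

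Assembly factors, which build the complexes and leave them, were called in both directions. Of 57 tested, 8 were higher and 5 lower with siGGGGGC at 24 h (14.0% and 8.77%, beside 10.6% and 8.32% of all genes). At 48 h 19 and 17 were called with siGGGGGC (33.3% and 29.8%, beside 27.8% and 27.5%) and 18 and 13 with siGGCAGU (31.6% and 22.8%, beside 27.8% and 24.9%), shares near those of all genes. The median log2 fold changes at 48 h were -0.04 with siGGGGGC and 0.02 with siGGCAGU. Without siNT1 48 h replicate 1 they were -0.09 and -0.05, beside -0.02 and 0.03 for all genes. With siGGGGGC at 48 h SDHAF4, a complex II assembly factor, rose by 1.38 and ATPAF2, a chaperone of the ATP synthase head, by 1.32, whereas LYRM7, which delivers UQCRFS1 to complex III, fell by 1.17 and COA7 by 1.05. With siGGCAGU SDHAF4 rose by 1.33 and FMC1, a complex V assembly factor, fell by 1.30.

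Regulators of mitochondrial genes were called evenly in both directions with siGGGGGC and more often lower with siGGCAGU. Of 13 tested, 2 were higher and 2 lower with siGGGGGC at 24 h, beside 10.6% and 8.32% of all genes, 5 and 5 at 48 h, beside 27.8% and 27.5%, and 2 and 8 with siGGCAGU, beside 27.8% and 24.9%. The median log2 fold changes at 48 h were -0.09 with siGGGGGC and -0.27 with siGGCAGU. Without siNT1 48 h replicate 1 they were -0.02 and -0.34, beside -0.02 and 0.03 for all genes. PPARGC1B, a coactivator of mitochondrial biogenesis, fell by 1.54 with siGGGGGC and by 2.00 with siGGCAGU at 48 h, and MYC fell by 1.47 and 1.79. TFAM, which packages and transcribes mitochondrial DNA, rose with siGGGGGC by 0.58 at 24 h and 0.66 at 48 h and fell with siGGCAGU by 0.35.

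Enzymes of the citric acid cycle, which supplies NADH and succinate, numbered 16. With siGGGGGC at 48 h 4 were higher and 5 lower, and with siGGCAGU 3 and 8. The shares of all genes were 27.8% and 27.5%, and 27.8% and 24.9%. CS, citrate synthase, fell with siGGGGGC by 0.80 at 24 h and 1.34 at 48 h, and with siGGCAGU by 0.50. DLST, a subunit of the oxoglutarate dehydrogenase complex, fell at 48 h by 0.88 with siGGGGGC and 0.98 with siGGCAGU. Of 18 genes of mitochondrial import and outer-membrane channels, 0 were higher and 3 lower with siGGGGGC at 24 h by edgeR, 2 and 7 at 48 h, and 2 and 5 with siGGCAGU, beside the same shares of all genes at 48 h and 10.6% and 8.32% at 24 h. TOMM40, the import channel of the outer membrane, was at 104 ± 5.72 CPM (SD, n = 2) in siNT1 and 50.7 ± 0.950 CPM in siGGGGGC at 24 h, and at 102 and 96.7 CPM and then 19.0 and 20.7 CPM at 48 h. No library of siGGGGGC or siGGCAGU overlapped the controls of its time, and TOMM40 fell by 1.03 and 2.32 with siGGGGGC, and by 0.99 with siGGCAGU.

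Promoters of members were compared with all promoters by 3 motifs, because nuclear respiratory factors are known to bind many of these genes. Sequence came from RefSeq on GRCh38.p14, 250 bases before to 50 after each gene's start, and 67 members were among 15843 promoters. The NRF1 motif, GCGCA then any base then GCGC on either strand, was in 17 (25.4%) against 8.6% of all promoters. The ETS-type motif CCGGAAG, read by NRF2 (GABP), was in 19 (28.4%) against 14.2%, and CCAAT in 24 (35.8%) against 36.4%. The windows below show the match in capitals, 5′ to 3′ on the gene's strand, for 3 members that rose with both duplexes and the Rieske protein, which fell with both. They lie at chr2:97646014-97646042 (COX5B, plus), chr19:14572073-14572101 (NDUFB7, minus), chr3:48609674-48609703 (UQCRC1, minus) and chr19:29213163-29213192 (UQCRFS1, minus).
COX5B, ETS-type motif: gaagcccgcccCCGGAAGtccctcctgtc
NDUFB7, ETS-type motif: gcctaaatgacCCGGAAGctgtgtctgac
UQCRC1, NRF1 motif: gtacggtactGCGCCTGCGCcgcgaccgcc
UQCRFS1, NRF1 motif: gcgcctcctcGCGCCTGCGCcgtggttgga

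Of 19 members with the ETS-type motif 10 were higher with siGGCAGU, beside 27.8% of all genes, with a median log2 fold change of 0.32 against 0.10 for the other members. Other members here include tested ones that had no promoter among those searched. Without siNT1 48 h replicate 1 the median of the 19 was 0.10, against -0.003 for the other members and 0.03 for all genes. The motif groups were not tested against each other. With siGGGGGC at 48 h the 19 had 7 higher and 3 lower, beside 27.8% and 27.5% of all genes, and a median of 0.16 against 0.08. Without that library the median was 0.05 against -0.07, beside -0.02 for all genes. The 16 tested members with the NRF1 motif had 3 higher and 3 lower with siGGGGGC at 48 h, with a median of -0.03 against 0.12, and 3 higher and 1 lower with siGGCAGU, with 0.13 against 0.15. The library left out, the medians were -0.12 with siGGGGGC and -0.02 with siGGCAGU, against 0.02 and 0.06 for the other members. UQCRC1 and UQCRFS1, printed above with identical NRF1 letters, moved in opposite directions. A match describes the sequence only, and binding was not measured.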

How the data were processed

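RNA-seq gene counts were analysed from 10 HeyA8 libraries in 5 groups of 2. The deposited files hold raw counts per gene that the authors made from reads on hg38, and per the labels TopHat, Bowtie2, HTSeq and DESeq2 were used. The study's methods name trimming with Trimmomatic, alignment with TopHat or STAR, assignment of exonic reads to an Ensembl annotation by htseq, and edgeR. Which of these aligners made the files and the strand setting are not given in the sources used here. Deposited tables of the authors' own comparisons, which hold fold changes and p-values, were not used, and 0 columns belonged to other samples. Of the 58395 gene identifiers, 57754 (98.9%) matched GENCODE.

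Counts were fitted in R 4.3.3 with edgeR 4.0.16 (limma 3.58.1), with genes kept by filterByExpr, TMM scaling and a quasi-likelihood F-test over all 10 libraries, which leaves 5 residual degrees of freedom. Fold changes are log2 with their standard errors (SE), and p-values were adjusted by Benjamini-Hochberg over 16905 genes, with calls at an adjusted p below 0.05. CPM values use TMM-scaled library sizes. The biological coefficient of variation was 0.0837. Depth of 19781445 to 42428986 counts per library limits precision mainly for members under 10 CPM. The fit was tested on simulated data.

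Named members were, in each comparison, the 5 largest called rises and falls without overlap between groups, the highest member per kilobase in each complex, core subunits and paralogue pairs, and others were chosen after their values were seen. The members and the lists of related genes were chosen with earlier results of these data known. Alternatives were DESeq2 1.42.0, RLE size factors, protein-coding totals, total counts without TMM, no count filter, a replicate block, a fit of only the groups compared and leaving out each library. Removal of a transcript-length trend and addition of pseudogene counts were chosen after seeing the data.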

Additional observations from a re-analysis of the deposited data

Results flagged for a closer look

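In 14 members the effect of siGGGGGC against siNT1 at 48 h differed from that at 24 h by the interaction term of the edgeR fit. Of the 78 members, 9 were higher by this term, beside 13.4% of all genes tested, and 5 lower, beside 15.2%. The log2 difference, 48 h minus 24 h, was positive for NDUFB4 (0.73), COX7A2 (0.72), NDUFA12 (0.69), NDUFC1 (0.66), NDUFA4 (0.57), NDUFS4 (0.52), COX6C (0.52), COX7A2L (0.43) and NDUFA2 (0.41). It was negative for COX8A (-0.69), SDHA (-0.67), ATP5PO (-0.50), UQCRFS1 (-0.43) and UQCRC2 (-0.42). With 2 libraries per group, no group was large enough to look for a sample far from the others.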

How the results depend on the processing

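Scaling to total counts without TMM moved the most. With siGGGGGC at 24 h it gave 4 higher and 6 lower members (median -0.10), at 48 h 19 lower (median -0.049), with siGGCAGU 15 higher and 11 lower, and in siNT1 over time 3 and 2 (median -0.0056). A fit of only the groups compared gave 19 lower at 24 h, 14 higher with siGGCAGU, and 4 higher and 13 lower in siNT1 over time. Without the count filter 22 members were lower with siGGGGGC at 48 h, 8 with siGGCAGU and 8 in the difference between times (median -0.067), and siNT1 over time gave 5 and 10. Of the alternatives chosen after seeing the data, removing the length trend gave 12 lower at 24 h (median -0.075), 19 higher in the difference between times, and 6 and 12 in siNT1 over time. Adding pseudogene counts gave 2 higher in siNT1 over time and turned NDUFV2 to 0.37 with siGGGGGC and 0.22 with siGGCAGU at 48 h. With siGGGGGC at 48 h it also gave calls to SDHA (-0.32), SDHC (-0.27) and COX6A1 (0.34). In the direct comparison COX6A1 went from -0.29, which was called, to -0.06, which was not. The causes of these shifts were not tested. Shares of all genes under each alternative are not given beside these counts, so the shifts are not read as particular to the members. DESeq2, RLE size factors and protein-coding totals moved no count by over 1.5 times, and the direct comparison of the duplexes had no such shift under any of these.

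Leaving out 1 library at a time, siGGGGGC at 24 h gave 2 to 12 higher and 0 to 6 lower members (median -0.01 to 0.03), siGGGGGC at 48 h 18 to 30 and 7 to 17 (-0.047 to 0.24), siGGCAGU 17 to 38 and 4 to 11 (0.04 to 0.28), the direct comparison 12 to 20 and 16 to 26 (-0.06 to -0.03), the difference between times 3 to 21 and 2 to 7 (-0.04 to 0.15), and siNT1 over time 0 to 5 and 0 to 40 (-0.36 to -0.11). A group left with 1 library was assumed to vary like the others. These ranges too are given without the shares of all genes and are not read as particular to the members.

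Deviations of same-numbered libraries correlated at -0.089 to 0.027, so the numbers do not pair them. The replicate block gave 24 higher and 11 lower members with siGGGGGC at 48 h, 24 and 5 with siGGCAGU and 9 and 3 with siGGGGGC at 24 h. It moved no count by over 1.5 times. Low counts (NDUFV2, NDUFS7, NDUFA13, ATP5F1D) and 2 libraries per group limit what these data can resolve.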

Other observations

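In the siGGCAGU group at 48 h the replicates differed more in single members than in the other groups, with an SD of the log2 difference of 0.32 over 78 members, beside 0.27 in siNT1 at 48 h, 0.12 in siGGGGGC at 48 h, 0.14 in siNT1 at 24 h and 0.15 in siGGGGGC at 24 h. The order of these values was not tested.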
